A study of Rattus norvegicus with 2 samples.

Results

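Transfer RNA (tRNA) synthetases are the enzymes that load each tRNA with its amino acid before protein synthesis, and 36 of their genes were followed in rat neural stem cells treated with the channel blocker ZD7288. The genes were taken from a written list by symbol, 20 for the enzymes of the cytosol and 16, with names ending in 2, for the enzymes of the mitochondrion. All 36 symbols were found among the 25399 genes of the deposited table.

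Per the labels, the cells were purchased neural stem cells from the cortex of Sprague-Dawley rat embryos (E14.5), grown with FGF2, a growth factor that keeps such cells undifferentiated. The vehicle culture received 0.2% DMSO and the treated culture received 30 µM ZD7288 in 0.2% DMSO, in both cases for 48 h with medium and additives renewed at 24 h. ZD7288 blocks hyperpolarisation-activated cyclic nucleotide-gated (HCN) channels, and the label of the treated sample spells it ZD2788. RNA of single cells was read with the 10x Chromium 3′ kit, version 2, with 1 library per group.

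The kept vehicle cells numbered 732 with 15611454 unique molecular identifiers (UMIs, each counting 1 captured RNA molecule), and the kept ZD7288 cells numbered 3135 with 73681950 UMIs. The median cell held 17119 UMIs in vehicle and 23001 in ZD7288, with 5.84% and 4.70% of UMIs from mitochondrially encoded genes, and 3 barcode sequences occurred in both libraries. Which barcodes belong to which culture rests on the number in each sample title alone, and so does the direction of every ratio below. Stem cell markers were present in both libraries, with Sox2 at 230 and 247 UMIs per 1000000 (CPM), Nes at 121 and 134 CPM and Vim at 4204 and 4690 CPM in vehicle and ZD7288, and the 11 stem cell markers summed to 7629 and 7549 CPM. Of the 10 stem cell markers with a mean of at least 10 CPM, Sox9, Hes1 and Notch1 were lower after ZD7288 by 1.5-fold or more (ratios of 0.568, 0.566 and 0.417) and Slc1a3 and Msi1 higher (1.58 and 1.94). Microglia and blood markers had 0 UMIs in vehicle and 2 in ZD7288, intermediate progenitor markers 1 and 0, and endothelial markers 0 and 24, all 24 from Kdr, with Cdh5 and Cldn5 at 0 in both. Of the 8 oligodendrocyte precursor markers, 3 reached a mean of 10 CPM over both libraries and all 3 were lower after ZD7288, and the list's sum was 2272 CPM in vehicle and 1235 CPM in ZD7288, mostly Olig1, while Sox10 and Mbp had 3 UMIs each in vehicle and 10 each in ZD7288. Markers of pericytes, fibroblasts and mesenchyme summed to 0.128 CPM in vehicle and 8.10 CPM in ZD7288. Neuron markers summed to 170 CPM in vehicle and 186 CPM in ZD7288. Of these 7 markers 2 reached a mean of 10 CPM, with log2 ratios of -0.57 and 0.61. Astrocyte markers summed to 33.6 CPM in vehicle and 46.5 CPM in ZD7288, and 1 of these 5 reached that mean, with a log2 ratio of 0.48. The part of these markers in the synthetase values was not tested.

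Each synthetase recognises its own amino acid and the tRNAs that carry it, uses ATP to join them, and many also remove amino acids joined by mistake. Mammalian cells keep separate nuclear genes for most cytosolic and mitochondrial enzymes, and the products of the second set are imported to serve the small number of proteins made inside mitochondria. When amino acids run short, uncharged tRNA activates the kinase GCN2, phosphorylation of eIF2α lowers general translation and raises translation of the transcription factor ATF4, and ATF4 with its C/EBP partners binds a composite DNA element whose core reads TGATGNAA. Many cytosolic synthetase genes are known ATF4 targets.

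The promoters are shown first because a core of this kind stood in several of the genes that were higher after ZD7288. RefSeq promoter windows of 300 bases (250 before the annotated start and 50 from it, build GRCr8) were matched for 33 of the 36 genes, without Dars, Gars and Rars. The letters TGATGNAA, or TTNCATCA where the match lies on the other strand, occurred in 7 of 17 cytosolic windows and in 0 of 16 mitochondrial windows. The core stood in 3.82% of all 27457 promoter windows, as did 1.84% of the 4958 windows of genes with enough UMIs to be compared. The stretches below are read 5′ to 3′ on the strand of the gene, with the core in capitals, and the position of the core's first base is given from the start site (+1).

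Mars, core at -17, chr7:65023752-65023781, minus strand: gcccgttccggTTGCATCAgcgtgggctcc
Nars, core at -14, chr18:60275778-60275807, minus strand: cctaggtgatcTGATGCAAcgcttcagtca
Tars, core at -27, chr2:62114811-62114840, minus strand: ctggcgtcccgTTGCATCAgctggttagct
Iars, core at -24, chr17:15193658-15193687, minus strand: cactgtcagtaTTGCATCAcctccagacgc
Aars, core at 10, chr19:55908480-55908509, plus strand: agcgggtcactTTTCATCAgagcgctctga
Cars, core at 18, chr1:208225334-208225363, minus strand: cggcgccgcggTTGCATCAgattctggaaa
Yars, core at 39, chr5:146820190-146820212, plus strand: acgagctcagcTGATGCAAcctg

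In 6 of these 7 stretches the core was the same 8 letters, TGATGCAA, read on the gene's strand in Nars and Yars and on the other strand in Mars, Tars, Iars and Cars. The Aars stretch shown holds 1 of the 2 matches in that window and has another letter at the open position. Mars, Nars, Tars and Iars held it within 27 bases before the annotated start. The whole 250 bases before the start are shown for Mars and Nars, which hold a core, and for the cytosolic genes with the highest and the lowest ratio after ZD7288, Eprs and Qars, in which the window held no match.

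Mars, chr7:65023754-65024003, minus strand: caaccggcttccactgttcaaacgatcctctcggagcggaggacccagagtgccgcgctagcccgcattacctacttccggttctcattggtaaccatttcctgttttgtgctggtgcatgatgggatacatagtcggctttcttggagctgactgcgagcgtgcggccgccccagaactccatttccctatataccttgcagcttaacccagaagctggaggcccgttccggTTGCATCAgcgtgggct
Nars, chr18:60275783-60276032, minus strand: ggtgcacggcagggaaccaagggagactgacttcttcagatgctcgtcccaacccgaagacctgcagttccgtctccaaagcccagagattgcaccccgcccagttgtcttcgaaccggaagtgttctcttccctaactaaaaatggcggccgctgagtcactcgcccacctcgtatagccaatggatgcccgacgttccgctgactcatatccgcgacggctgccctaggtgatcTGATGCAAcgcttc
Eprs, chr13:99433003-99433252, plus strand: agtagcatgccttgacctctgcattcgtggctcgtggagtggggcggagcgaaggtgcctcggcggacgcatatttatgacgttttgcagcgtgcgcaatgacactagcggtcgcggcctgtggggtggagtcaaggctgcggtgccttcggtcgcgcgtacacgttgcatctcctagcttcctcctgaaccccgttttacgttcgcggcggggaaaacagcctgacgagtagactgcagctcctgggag
Qars, chr8:118085993-118086242, plus strand: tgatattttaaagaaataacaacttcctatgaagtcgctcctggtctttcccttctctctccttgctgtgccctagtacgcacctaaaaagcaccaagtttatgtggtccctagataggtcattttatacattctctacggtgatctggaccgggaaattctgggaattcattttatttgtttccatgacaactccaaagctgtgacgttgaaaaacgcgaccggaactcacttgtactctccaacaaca

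A match is a description of the letters and does not show that a factor binds there, and a window without a match says only that these letters are not in these 300 bases.

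Values in CPM are the UMIs of a gene in all kept cells of a library, per 1000000 UMIs of that library. A gene was compared when the mean of both libraries was at least 10 CPM, which 6082 genes passed, and a difference of 1.5-fold or more, up or down, is named a call. The 95% intervals are exact and reflect counting alone. Each condition was 1 culture and 1 library, so the spread between cultures was not measured and no test between conditions was possible.

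The cytosolic synthetase genes were higher after ZD7288 nearly as a class. All 20 passed the floor, and 15 were called higher and 0 lower, against a background of 9.68% of all genes higher and 5.56% lower. Their summed level was 1522 CPM in vehicle and 3720 CPM (3719.5) in ZD7288, 2.44-fold (2.41 to 2.48). The median log2 ratio over the 20 genes was 1.01, beside 0.07 over all compared genes. Scaling the libraries to the median gene ratio in place of the total UMIs changed the split over all genes from 589 higher and 338 lower (63.5% of the called genes higher) to 454 higher and 450 lower (50.2%), and left 15 cytosolic genes called higher.

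**Figure D1:**
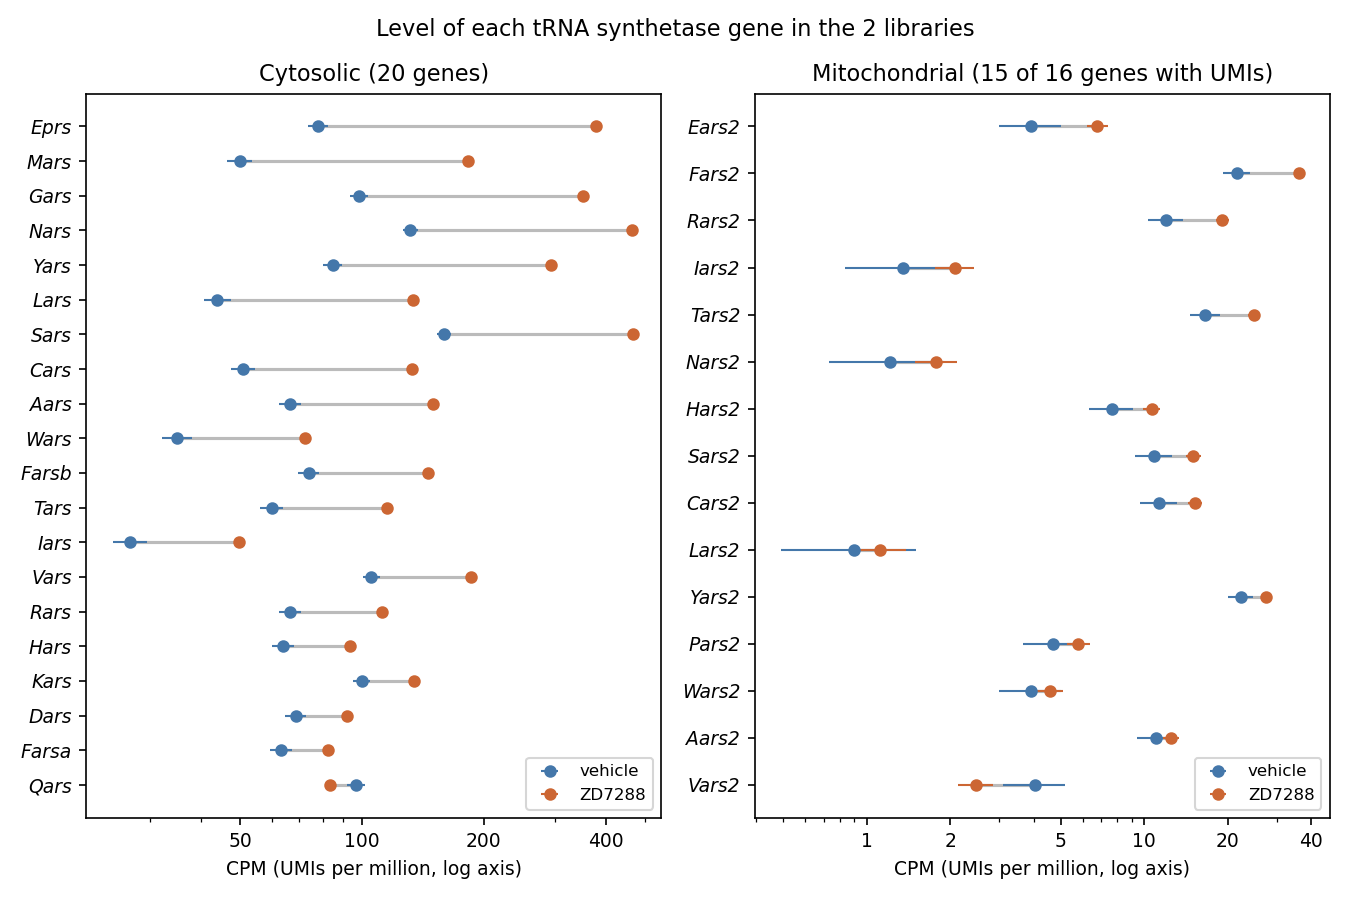
Level of each cytosolic (left) and mitochondrial (right) synthetase gene in CPM on log axes, ordered by ratio, in the vehicle library (blue) and the ZD7288 library (orange), with horizontal bars for exact 95% Poisson intervals. The ZD7288 point lies to the right of the vehicle point for 19 of 20 cytosolic genes and 14 of 15 mitochondrial genes, and Qars and Vars2 are the exceptions.

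Eprs, whose product carries glutamyl- and prolyl-tRNA synthetase activity in a single chain, stood at 77.7 CPM in vehicle and 377.7 CPM in ZD7288. Its ratio, 4.86 (4.59 to 5.15), was the highest of the class and lay at the 99.6th percentile of all compared genes. Mars, the methionyl enzyme that charges both initiator and elongator tRNA, was 49.96 CPM in vehicle and 182.6 CPM in ZD7288, a ratio of 3.65 (3.40 to 3.93). These genes moved up within the class, Eprs from the 8th to the 3rd highest CPM and Mars from the 17th to the 7th.

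Another 3 genes lay close behind. Gars, the glycyl enzyme, which serves cytosol and mitochondria from the same gene, was 98.4 CPM in vehicle and 351.2 CPM in ZD7288 (3.57, 3.39 to 3.76). Nars, the asparaginyl enzyme, was 131.7 and 465.5 CPM (3.53, 3.38 to 3.70). Yars, the tyrosyl enzyme, was 84.6 and 293.1 CPM (3.46, 3.28 to 3.66). The intervals of Mars, Gars, Nars and Yars overlap, so their order among themselves is not resolved by counting, while the interval of Eprs lies above all of them. Lars, the leucyl enzyme and a proposed leucine sensor for the growth kinase mTORC1, completed the 6 genes at 3-fold or more with 43.9 CPM in vehicle and 133.3 CPM in ZD7288 (3.03, 2.81 to 3.28).

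Between 2-fold and 3-fold stood Sars, Cars, Aars and Wars. Sars, the seryl enzyme, which also charges the selenocysteine tRNA with serine, had the highest level of the class in both libraries, 159.2 CPM in vehicle and 467.9 CPM in ZD7288, a ratio of 2.94 (2.82 to 3.06). In ZD7288 its CPM interval (463.0 to 472.9) overlaps that of Nars (460.5 to 470.4). The order of Sars and Nars in that library is thus not resolved by counting. Cars, for cysteine, was 50.9 and 132.6 CPM (2.61, 2.43 to 2.81). Aars, for alanine, was 66.4 and 149.4 CPM (2.25, 2.11 to 2.401). Wars, the tryptophanyl enzyme, known in other settings as an interferon-induced gene, was the second lowest of the class at 34.9 CPM in vehicle and 72.4 CPM in ZD7288 (2.07, 1.90 to 2.27).

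The other 5 called genes lay between 1.5-fold and 2-fold. They were Farsb at 1.97 (1.85 to 2.09), Tars at 1.92 (1.80 to 2.06), Iars at 1.86 (1.68 to 2.07), Vars at 1.77 (1.68 to 1.86) and Rars at 1.69 (1.58 to 1.80), and they encode a phenylalanyl subunit and the threonyl, isoleucyl, valyl and arginyl enzymes. Iars was the lowest gene of the class in both libraries, at 26.7 CPM in vehicle and 49.8 CPM in ZD7288. Rars, at 66.4 and 112.1 CPM, was the gene nearest above the limit, and Hars, the histidyl enzyme, at 63.9 and 93.5 CPM (1.46, 1.37 to 1.57), the gene nearest below it.

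The 5 genes not called differed in direction. Hars, Kars, Dars and Farsa all had ratios above 1 with intervals that exclude 1. Kars, the lysyl enzyme, which like Gars also serves mitochondria, was 99.7 CPM in vehicle and 134.4 CPM in ZD7288 (1.35, 1.28 to 1.42). Dars, for aspartate, was 68.7 and 91.6 CPM (1.33, 1.251 to 1.42), and Farsa, the other phenylalanyl subunit, was 63.2 and 82.3 CPM (1.30, 1.22 to 1.40). Qars, the glutaminyl enzyme, was the only cytosolic gene with a lower level in ZD7288, 96.5 CPM in vehicle and 83.5 CPM in ZD7288, a ratio of 0.865 (0.818 to 0.916) at the 21.8th percentile of all genes. Qars stood below its vehicle level in each of the 9 other settings of cells and scaling tried as well, with log2 ratios between -0.45 and -0.11.

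**Figure D2:**
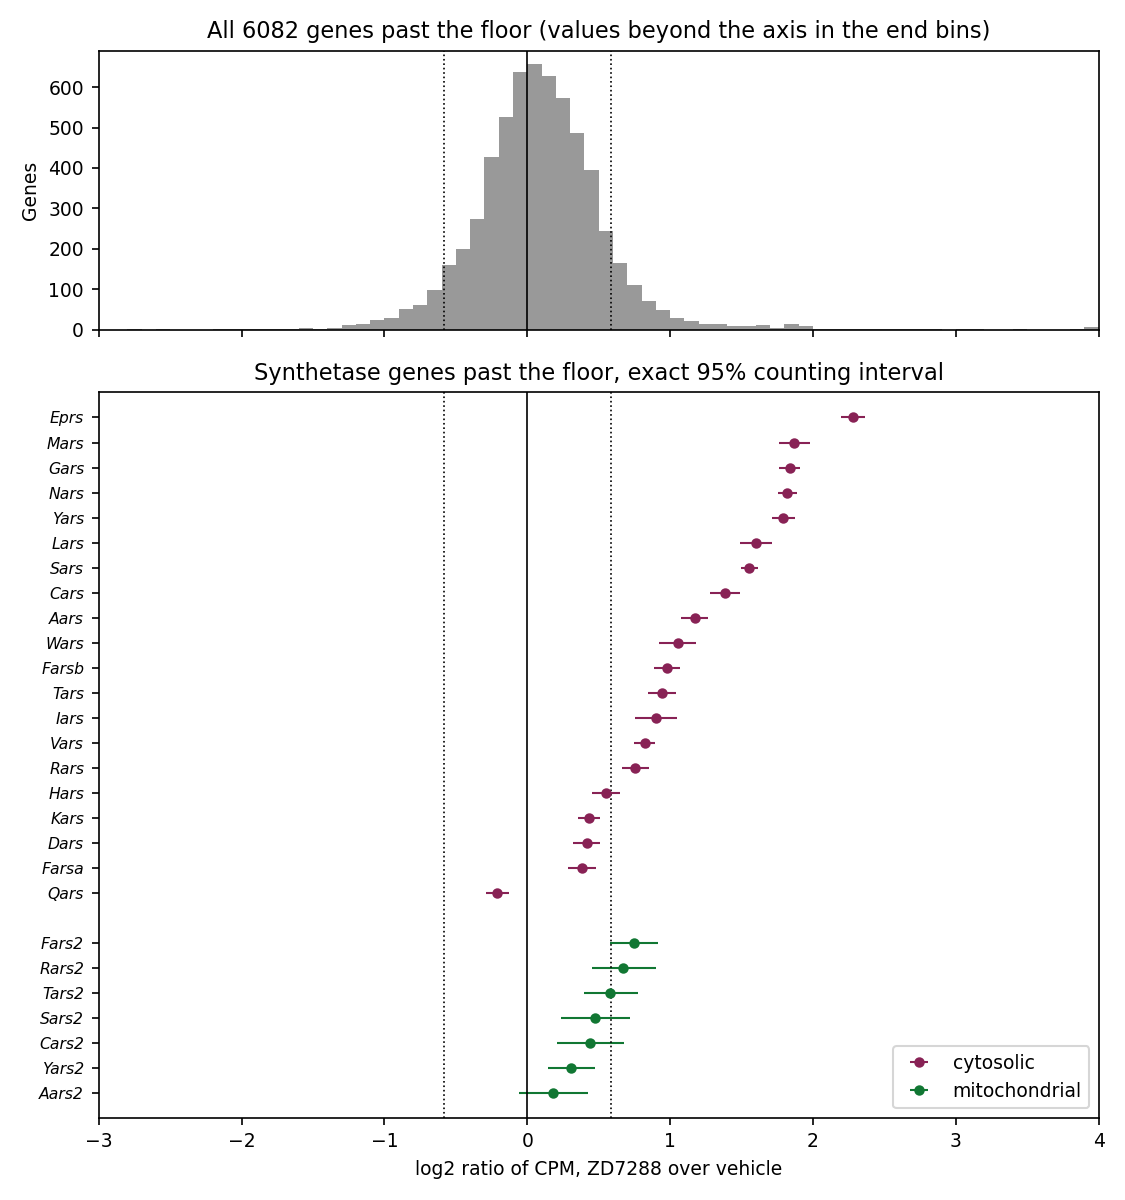
Log2 ratio of CPM, ZD7288 over vehicle, as a histogram of all 6082 compared genes (top) and for each synthetase gene past the floor with its exact 95% counting interval (bottom; cytosolic genes purple, mitochondrial genes green). Dotted lines mark 1.5-fold in either direction: 15 cytosolic genes lie to the right of the upper line, from Rars to Eprs, and of the mitochondrial genes Fars2 and Rars2 do.

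The unequal ratios changed the make-up of the class. In the vehicle library the highest cytosolic gene exceeded the lowest by 5.96-fold, and in the ZD7288 library by 9.40-fold. Sars, Nars, Eprs, Gars and Yars were picked as the 5 genes highest in ZD7288. Together they gave 36.3% of the cytosolic synthetase UMIs in vehicle and 52.6% in ZD7288. This choice favours a larger share in ZD7288, since the 5 highest genes in vehicle were Sars, Nars, Vars, Kars and Gars. Qars went from the 6th highest gene to the 17th, and Kars from the 4th to the 10th. The ratio of Eprs to Qars CPM, enzymes for the closely related substrates glutamate and glutamine, was 0.805 in vehicle and 4.52 in ZD7288, a 5.62-fold difference (5.18 to 6.10). These genes had the highest and the lowest ratio of the class, so no other pair in it differs more. The interval takes no account of that choice. Levels of different genes are compared here as UMIs, which count 3′ ends and are not divided by transcript length, and they depend on how well each 3′ end is annotated, which was not tested.

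The subunits of phenylalanyl-tRNA synthetase were not raised alike. The enzyme is a tetramer that holds Farsa and Farsb chains in equal number. Farsb over Farsa CPM was 1.17 in vehicle and 1.76 in ZD7288, so that the balance of the mRNAs differed 1.51-fold (1.38 to 1.66) between the libraries.

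Among the cytosolic synthetase genes Eprs, Iars, Lars, Mars, Qars, Rars, Kars and Dars encode members of the multi-synthetase complex, a particle held together by the scaffold proteins Aimp1, Aimp2 and Eef1e1. Of these 8 genes 5 were called higher, with a median log2 ratio of 0.83, and of the 12 genes outside the complex 10 were, with a median of 1.11. The share over all genes was 9.68%, and groups of 8 and 12 genes are too small to read a contrast between these counts. The complex genes summed to 529.6 CPM in vehicle and 1165 CPM in ZD7288 and the others to 992.2 CPM and 2554 CPM, so that the fold change outside the complex over that inside it was 1.17 (1.14 to 1.20). The complex held the highest ratio of the class and the lowest, Eprs and Qars. None of the 3 scaffold genes was called: Eef1e1 was 178 CPM in vehicle and 262 CPM in ZD7288 (1.47, 1.41 to 1.53), Aimp1 had a ratio of 1.24 and Aimp2 one of 1.26.

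Synthetases fall into class I and class II by the fold of the catalytic domain, and Eprs contains a domain of each. Of 9 class I genes 8 were called higher, with a median log2 ratio of 1.05, the exception being Qars. Of 10 class II genes 6 were called, with a median of 0.96, and the other 4 were Hars, Kars, Dars and Farsa. Both counts stand beside 9.68% of all genes called higher, and groups of 9 and 10 genes are too small to read a contrast between them. The summed class II level over the summed class I level was 1.58 in vehicle and 1.68 in ZD7288.

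The mitochondrial synthetase genes were far lower in level and were higher after ZD7288 by less. Only 7 of 16 passed the floor, of which 2 were called higher and 0 lower, beside the same 9.68% and 5.56% of all genes. The 16 genes together gave 133.0 CPM in vehicle and 185.5 CPM in ZD7288, 1.39-fold (1.33 to 1.46). The median log2 ratio was 0.47 over the 7 genes past the floor, which leave out the 9 lowest genes and do not stand for all 16. The highest mitochondrial gene in vehicle, Yars2, stood at 0.832 of the level of the lowest cytosolic gene, Iars.

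Fars2, the single-chain mitochondrial phenylalanyl enzyme, was the highest in ZD7288, with 21.5 CPM in vehicle and 36.1 CPM in ZD7288 (1.68, 1.497 to 1.88). Rars2, the arginyl enzyme, was 11.98 and 19.1 CPM (1.59, 1.37 to 1.87). These were the called genes. Fars2 stayed above 1.5-fold in all 9 other settings of cells and scaling, while Rars2 fell short of it in 3, with log2 ratios of 0.51 after thinning of cells, 0.53 in S range cells and 0.55 in G2/M range cells. Tars2, the threonyl enzyme, at 16.6 and 24.8 CPM, had a ratio of 1.497 (1.31 to 1.71), just under the limit. Sars2 at 1.39 (1.18 to 1.64), Cars2 at 1.36 (1.16 to 1.60) and Yars2 at 1.24 (1.10 to 1.39) had intervals above 1, and the interval of Aars2, at 11.02 and 12.5 CPM (1.13, 0.962 to 1.34), includes 1.

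The 9 genes below the floor are described by their counts only. Mars2 had 0 UMIs in both libraries, which allows up to 0.192 CPM in vehicle and 0.0407 CPM in ZD7288 for counting error. The other 8 stood between 0.897 and 7.62 CPM in vehicle and between 1.11 and 10.6 CPM in ZD7288. Ears2, the glutamyl enzyme, had 61 UMIs in vehicle and 499 in ZD7288, a ratio of 1.73 (1.33 to 2.30), and Hars2 had a ratio of 1.39 (1.15 to 1.71). Vars2, the valyl enzyme, was the only mitochondrial gene lower in ZD7288, with 63 and 182 UMIs, or 4.04 and 2.47 CPM (0.612, 0.457 to 0.829). The intervals of Iars2, Nars2, Lars2, Pars2 and Wars2 include 1. Over the 15 genes with UMIs, 14 ratios were above 1, and 8 intervals lay above 1, 1 below and 6 across it.

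The difference between the classes was measured directly. Summed cytosolic over summed mitochondrial CPM was 11.4 in vehicle and 20.1 (20.05) in ZD7288, so the cytosolic fold change exceeded the mitochondrial one by 1.75 times (1.67 to 1.84). The median log2 ratio of the cytosolic genes was 0.54 above that of the mitochondrial genes past the floor.

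Pairing the genes by amino acid gave the same direction in 15 of 16 pairs, with 12 intervals above 0 and 1 below. Of the 8 pairs in which both genes passed the floor, 7 had the larger ratio in the cytosolic gene, 6 with intervals above 0. Among those 8, the largest log2 difference was that of Yars and Yars2, 1.49 (1.30 to 1.67), followed by Sars and Sars2 at 1.08 (0.83 to 1.32), Aars and Aars2 at 0.99 and Cars and Cars2 at 0.94 (0.68 to 1.20). Arginine stood apart, since Rars and Rars2 had nearly equal ratios and a log2 difference of 0.08 (-0.16 to 0.32). Phenylalanine was the only amino acid with a reversed pair: Farsa was lower in ratio than Fars2 by a log2 difference of -0.36 (-0.56 to -0.17), while Farsb was higher by 0.23 (0.04 to 0.42). With a gene below the floor, Eprs exceeded Pars2 by 1.98 (1.59 to 2.35) and Vars exceeded Vars2 by 1.53, and for histidine and isoleucine the intervals hold 0. The pairs with Eprs share that gene, as those with Fars2 do, and are not independent. Mars had no pair value because Mars2 had no UMIs.

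**Figure D3:**
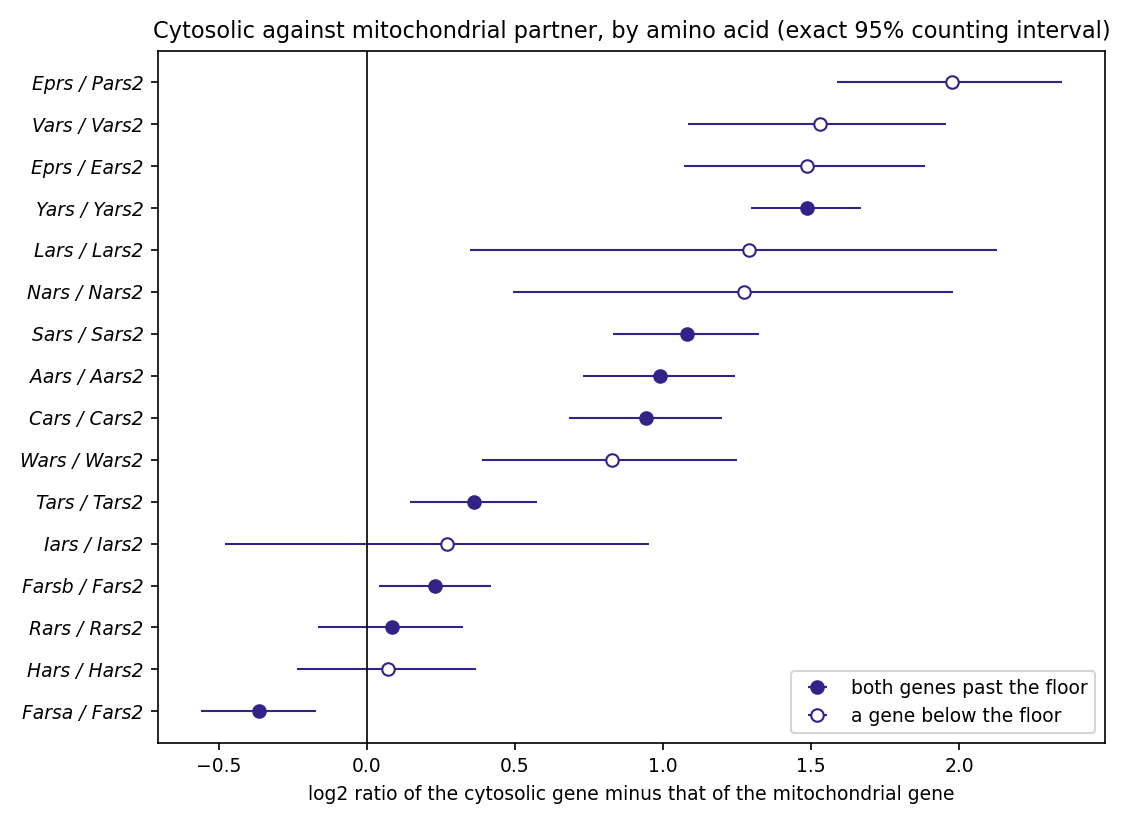
Log2 ratio of the cytosolic gene minus that of the mitochondrial gene for 16 pairs that charge the same amino acid, with exact 95% counting intervals. Filled points are the 8 pairs with both genes past the floor and open points the pairs with a gene below it. All points but Farsa with Fars2 lie right of 0, and the intervals of Hars, Rars and Iars pairs cross it.

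The histidine genes are the pair whose promoters overlap. Hars on the minus strand and Hars2 on the plus strand start 144 bases apart on chromosome 18 and run away from each other, and their RefSeq windows share 243 bases. Their ratios were 1.46 and 1.39, with a log2 difference of 0.07 (-0.24 to 0.37). The 143 bases between both start sites are shown on the plus strand, since they lie before both genes, and held no TGATGNAA core.

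Between Hars and Hars2, chr18:28672713-28672855: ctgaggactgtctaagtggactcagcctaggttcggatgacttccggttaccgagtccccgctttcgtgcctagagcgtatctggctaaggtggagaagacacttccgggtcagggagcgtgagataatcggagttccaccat

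Eprs and Iars2 are also neighbours, with start sites 36185 bases apart on chromosome 13 and opposite orientation. Eprs had a ratio of 4.86, and Iars2, with 21 UMIs in vehicle and 153 in ZD7288, one of 1.54 with an interval that includes 1. No other pair among the 33 genes with a matched window had start sites within 100000 bases.

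By call, the promoter core stood in 7 of the 13 cytosolic genes that were called higher and have a matched window (53.8%), in 0 of the 4 that were not called and have one, and in 0 of the 16 mitochondrial genes. Of all 483 genes called higher with a matched window 5.59% held it, and of 267 called lower 0.749%. These 483 include the called synthetase genes, which supply 7 of the 27 windows with a core, so the share is not a separate background. Among 30 matched windows of a list of ATF4-linked genes without synthetases 9 held it (30.0%). Ratios with and without a core overlapped within the class. Mars, Nars and Yars with a core had ratios of 3.65, 3.53 and 3.46, Tars and Iars with a core had ratios of 1.92 and 1.86, and Eprs, Lars and Sars without a match in the window had ratios of 4.86, 3.03 and 2.94.

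Lists of genes that work before or after charging had shares of called genes near the background or below it, which was 9.68% higher and 5.56% lower, so the counts below say nothing particular about these lists. Of 18 compared genes for tRNA processing and export, 2 were called higher, Xpot, the exportin that carries mature tRNA out of the nucleus, from 14.7 to 37.9 CPM (2.59, 2.26 to 2.97), and Elac2, which trims tRNA 3′ ends (1.53, 1.34 to 1.75), which is 11.1% of the list, and the median log2 ratio was 0.10. Of 26 tRNA modification genes 3 were called higher, the pseudouridine synthase Pus7 (2.18), the dihydrouridine synthase Dus2 (1.76) and Trmu, which thiolates mitochondrial tRNAs (1.62), which is 11.5% of the list, and the median was 0.37. Of 17 genes of RNA polymerase III, which transcribes tRNA genes, 0 were called higher and 1 lower, the small subunit Polr3k, with 294 CPM in vehicle and 169 CPM in ZD7288 (0.574, 0.555 to 0.594). Proofreading and deacylation genes had 0 of 5 called, with Aarsd1 at 1.32 and Dtd1 at 1.06. The pyrophosphatases Ppa1 and Ppa2, which remove the pyrophosphate released by charging, had ratios of 1.30 and 0.898.

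On the mitochondrial side, Qrsl1 was called higher, with 10.6 CPM in vehicle and 17.3 CPM in ZD7288 (1.63, 1.38 to 1.93). Its product is a subunit of the amidotransferase that makes mitochondrial glutaminyl-tRNA from glutamyl-tRNA in place of a glutaminyl synthetase. The partner subunits were nearly undetected, Gatb with 1 and 11 UMIs and Gatc with 0 and 1. Of 9 mitochondrial translation factors 0 were called, with a median log2 ratio of 0.26, Tufm at 1.23 and Guf1 at 0.962.

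Genes of the amino acid response differed more. Of 10 compared genes of amino acid sensing and control, 5 were called higher and 0 lower, beside 9.68% and 5.56% of all genes. The called genes were Cebpb at 5.43 (4.84 to 6.12), Ddit3 at 3.13 (2.76 to 3.57), Ppp1r15a at 2.72 (2.33 to 3.20), Atf4 at 2.25 (2.15 to 2.35) and Cebpg at 2.03. Of the 10 genes 7 had ratios above 1 and 3 had ratios below 1, the lowest log2 ratio being -0.43. Atf4 mRNA stood at 139 CPM in vehicle and 313 CPM in ZD7288. Eif2ak4, which encodes GCN2, was below the floor with 8.33 and 6.56 CPM. Of 35 ATF4-linked genes without synthetases 25 passed the floor. Of these 24 were called higher and 0 lower, beside the same 9.68% and 5.56% of all genes, with a median log2 ratio of 1.85. The 35 genes summed to 1614 CPM in vehicle and 5829 CPM in ZD7288. Cebpb, Ddit3 and Atf5 stand in both lists, so the lists are not separate sets, and Cebpb and Ddit3 are counted as called in each. The cytosolic synthetases, with a median of 1.01, stood between the ATF4-linked list and all genes.

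In single cells the difference was a shift of nearly the whole population. To compare cells at the same depth, each was thinned to 5000 UMIs, which left 710 vehicle and 2838 ZD7288 cells and left out 22 and 297 shallower ones. A vehicle cell then held 7.73 ± 3.80 cytosolic synthetase UMIs (mean ± SD over cells, 1 library), median 7, and a ZD7288 cell 18.7 ± 6.56, median 18. Of the ZD7288 cells 97.1% lay above the vehicle median and 82.6% above the vehicle 90th percentile. A mean of 6.08 different cytosolic synthetase genes was seen per vehicle cell and 10.5 per ZD7288 cell. Mitochondrial synthetases gave 0.651 and 0.928 UMIs per cell, and 53.1% of vehicle cells and 40.2% of ZD7288 cells had 0.

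For single genes the share of cells with a UMI followed the CPM. Eprs was seen in 31.3% (27.9 to 34.8, exact binomial interval) of vehicle cells and 80.6% (79.1 to 82.0) of ZD7288 cells, and without thinning in 70.6% and 95.2%. Mars was seen in 19.4% and 57.2% and Nars in 47.2% and 88.1%. Qars was seen in fewer ZD7288 cells at equal depth, 41.1% (37.5 to 44.8) of vehicle cells and 31.8% (30.1 to 33.5) of ZD7288 cells. Without thinning its shares were about equal, 76.0% and 77.3%. With thinning to 2000 UMIs they were 18.8% and 16.7%, a smaller gap. Each thinning was a single random draw, and the Qars log2 ratio was -0.45 at 5000 UMIs and -0.21 (-0.29 to -0.13) over all UMIs. Fars2 was seen in 10.4% and 15.6%. Synthetases are needed in every cell, so no population without them could give the background from free RNA, which was not measured.

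Within each library, cells with more ATF4-linked RNA held more cytosolic synthetase RNA. Across cells the UMIs of the 2 lists had Pearson r = 0.43 and Spearman rho = 0.34 in the 710 vehicle cells and 0.59 and 0.59 in the 2838 ZD7288 cells, a description of cells that share a library, all at 5000 UMIs. For the mitochondrial genes r was 0.05 and 0.01, at counts too sparse to read a relation. When the cells of each library were divided into low, middle and high ranges of the ATF4-linked list (273, 246 and 191 vehicle cells and 963, 980 and 895 ZD7288 cells), the cytosolic sum was 1301, 1501 and 1957 CPM in vehicle and 2840.3, 3856 and 4591 CPM in ZD7288. The lowest ZD7288 range thus stood above the highest vehicle range, and the ratio between ranges of the same name was 2.18, 2.57 and 2.35. The ranges were cut in each library by itself and did not hold equal ATF4-linked RNA. Between ranges of the same name the ATF4-linked list itself had ratios of 3.84, 3.70 and 3.14. Its sum was 3448 CPM in the lowest ZD7288 range and 2644 CPM in the highest vehicle range. Cells with equal ATF4-linked RNA were therefore not compared. The mitochondrial sum was 114, 153 and 125 CPM in vehicle and 179, 188 and 190 CPM (189.7) in ZD7288.

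**Figure D4:**
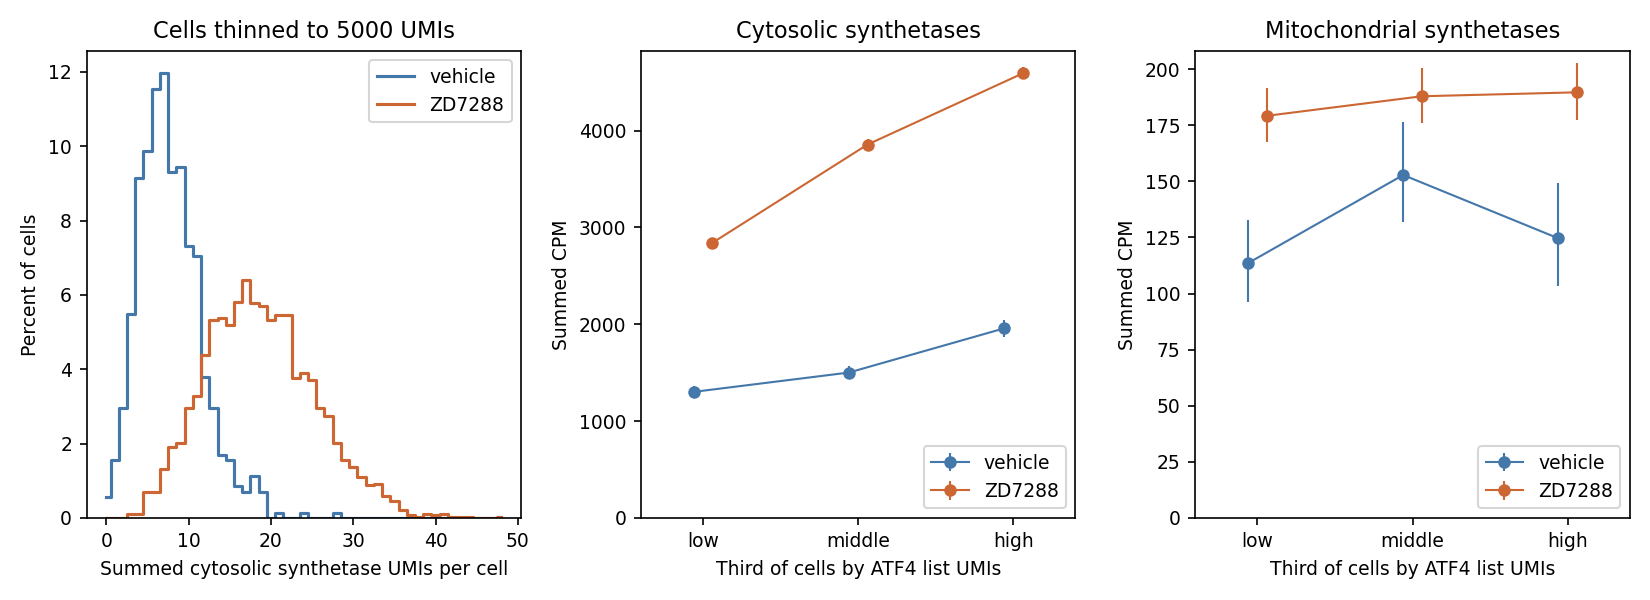
Left: percent of cells by summed cytosolic synthetase UMIs, each cell thinned to 5000 UMIs, for 710 vehicle cells (blue) and 2838 ZD7288 cells (orange). Middle and right: summed CPM of cytosolic and mitochondrial synthetase genes in the low, middle and high range of cells by UMIs of the ATF4-linked list, split within each library, with exact 95% Poisson intervals. The cytosolic sum is higher from the low to the high range in both libraries, and the mitochondrial sum in ZD7288 lies between 179 and 190 CPM.

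Among ZD7288 cells, the high range over the low range gave 1.62 (1.58 to 1.65) for the cytosolic sum and 1.06 (0.962 to 1.17) for the mitochondrial sum. Of the 20 cytosolic genes 18 had intervals above 1. Wars at 2.21 (1.88 to 2.61) and Eprs at 2.19 (2.05 to 2.35) differed most, followed by Sars at 1.88, Mars at 1.84, Yars at 1.83, Nars at 1.74 and Gars at 1.71. Dars was level at 0.996 (0.871 to 1.14), and Qars was lower in the high range, 0.837 (0.722 to 0.970), with 419 UMIs in the low and 326 in the high range. Of the 16 mitochondrial genes 1 had an interval above 1, Iars2, with 4 and 13 UMIs.

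The difference was also seen in each range of the cell cycle. Cells were divided into those with little cell cycle RNA (156 vehicle, 896 ZD7288), those in which S phase genes led (264 and 919) and those in which G2/M genes led (290 and 1023), and these are ranges of a score, not cell types. The ratios that follow are from cells thinned to 5000 UMIs. The cytosolic sum had ratios of 2.61 (2.46 to 2.78), 2.27 (2.17 to 2.37) and 2.48 (2.37 to 2.59), and the mitochondrial sum 1.60, 1.30 and 1.51. Eprs had ratios of 5.03, 4.27 and 5.56. Qars had ratios of 0.671 (0.531 to 0.856), 0.619 (0.506 to 0.760) and 0.890 (0.736 to 1.08), the last with an interval that includes 1. Without thinning the log2 ratios of Qars in the same ranges were nearer to 0, at -0.28, -0.32 and -0.11.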

How the data were processed

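The deposited matrix holds raw UMI counts per gene and barcode for both libraries together. The authors made the counts with Cell Ranger, per the submitters' processing notes, and the matrix header names software version 3.0.2. The genome build of the counts and the authors' rule for barcodes: not given in the sources used here. The number after the hyphen of a barcode was matched to the number in the sample title.

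Of 842 vehicle and 3849 ZD7288 barcodes, those with at least 1000 UMIs, 500 or more genes and no more than 10% mitochondrially encoded UMIs were kept as cells. Ratios have Clopper-Pearson intervals, CPM values Poisson intervals, and ratios of ratios conditional odds ratio intervals. These were computed with scipy 1.17.1 and tested on simulated data. No doublet caller was run; leaving out the 5% of cells with the most UMIs in each library was tried instead. Promoter sequences were those of RefSeq, build GRCr8. A comparison of the proteins was not made here. All 36 genes are reported; from each companion list, up to 4 genes past 1.5-fold are named, largest difference first, and otherwise the 2 genes of highest CPM. The 36 genes and the companion lists were chosen with earlier results of these data known, so their direction is not independent evidence. Eif2ak4, Cebpg, Gatb, Gatc and Aimp2 were named in addition after their values were seen. A companion gene and a promoter stretch are not reported here.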

Additional observations from a re-analysis of the deposited data

How the results depend on the processing

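With 1 library per group, no setting measures the spread between cultures. No paired analysis was possible because each group has 1 library. The cytosolic summed log2 ratio of 1.29 was 1.22 when scaled by the median gene ratio, 1.26 with a stricter cell filter (624 and 2738 cells), 1.31 with every cell weighted the same, 1.43 in the low cell cycle range and 1.21 in the S range, ranges being at full depth here. The mitochondrial one of 0.48 was 0.41 with median scaling, 0.39 in the S range and 0.55 in the G2/M range. The median difference between the classes, 0.54, was 0.81, 0.61 and 0.41 in the low, S and G2/M ranges and 0.43 with a floor of 20 CPM in the higher library. That floor lets a gene pass through the higher library alone, and only 3 mitochondrial genes passed it. Tars2 among them did so through ZD7288 alone, with 16.6 CPM in vehicle and 24.8 CPM in ZD7288. The 15 called cytosolic genes kept their call in all 9 settings of cells or scaling; 18 were called in the low range, 19 when a log2 ratio of 0.32 sufficed and 10 at 2-fold. The number of mitochondrial genes called, 2 of 7 as reported, was 4 of 7 after thinning, 5 of 7 at log2 0.32 and 0 of 7 at 2-fold. It was 4 of 15 with no floor and 1 of 3 with the 20 CPM floor, so these counts are not out of the same genes. Of all genes 10.1% were called higher after thinning, and for the no-floor and 20 CPM settings no share over all genes was computed. Rars2 was not called after thinning (0.51) or in the S (0.53) and G2/M (0.55) ranges. All genes gave 1572 higher and 882 lower at log2 0.32, 164 and 74 at 2-fold, and 938 and 566 in the low range. Of 315 member values under other settings, 312 kept their sign and 267 lay within the counting interval of the reported value. The 3 others were Aars2, Pars2 and Wars2, down to log2 ratios of -0.10, -0.23 and -0.08, where few UMIs limit precision. Causes of these shifts were not tested.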
